A study of Homo sapiens with 6 samples.

Results

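YAP1 and WWTR1 encode YAP and TAZ, a pair of transcription coactivators, and the data described here are the transcripts of these coactivators, of their DNA-binding partner TEAD1 and of 7 direct target genes in drug-resistant breast cancer cells. The 10 genes were taken by symbol from the deposited table of 58302 genes, in which CCN1 and CCN2 carry their older symbols CYR61 and CTGF, and all 10 passed the filter on low counts that left 15572 genes for testing. The set was selected on a measured value of these libraries, since CYR61 had been seen to fall strongly under cyperotundone (CYT) treatment, and its other genes are known partners and targets. The CYT against control values are therefore given as a description, without p-values.

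The cells were MDA-MB-231-DR, a doxorubicin-resistant derivative of the triple-negative human breast cancer line MDA-MB-231 that the study kept in medium with a low concentration of doxorubicin. There were 3 control libraries, labelled only as MDA-MB-231-DR cells, and 3 libraries of MDA-MB-231-DR cells treated with Cyperotundone (CYT), a compound isolated from a sedge. All of them came from this single resistant line, and the sources used here do not give the dose and duration of CYT for the sequenced cells. The study's statistics section describes its data in general as coming from independent experiments, without naming the sequenced libraries, so the p-values below measure only the spread between these libraries, which may be technical. The comparison asks which transcripts changed when resistant cells were exposed to CYT.

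In the Hippo pathway, a kinase cascade that ends in LATS1 and LATS2 phosphorylates YAP and TAZ and keeps them out of the nucleus. When the cascade is off, YAP and TAZ enter the nucleus, bind TEAD transcription factors and switch on genes such as CTGF, CYR61 and ANKRD1, which are widely read as indicators of their activity. The pathway responds to cell density, tension and serum factors, and YAP and TAZ have been linked to invasion and drug resistance in breast cancer. Because much of the regulation is at the level of the protein, the RNA of YAP1 and WWTR1 need not follow the activity of the proteins.

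The summed gene counts ran from 14050849 to 17770102 in the control libraries and from 13056270 to 14106017 in the CYT libraries. CYT replicate 2 stood apart from the other CYT libraries, with r = 0.905 and 0.904 across genes on the log2 scale against r = 0.970 between CYT replicates 1 and 3, so values that move strongly with it are also given without it. Of 4 genes that mark MDA-MB-231 cells, VIM, CD44, EGFR and CAV1, all were detected, and their summed level was 2766 to 3247 CPM (a count divided by the TMM-normalized library size, scaled to a fixed total) in control and 1185 to 1416 CPM in CYT libraries. VIM made up most of that sum, with 2259 to 2742 CPM in control. VIM (log2 fold change -1.30) and EGFR (-2.65) were called lower, and CD44 (-0.19) and CAV1 (-1.03) were not called. Among 10 luminal breast markers, ESR1 had at most 4 and PGR at most 3 counts in any library, and the 10 together reached 20.1 to 23.2 CPM in control and at least 24.2 CPM in CYT libraries. The 5 luminal markers tested lay on both sides of 0, from -1.51 for CLDN3 to 0.91 for CLDN4, and 0 were called. Both marker sums differed between the groups without overlap, and their part in the results below was not tested. In bulk RNA, fewer expressing cells and less RNA per cell cannot be told apart.

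In CYT-treated cells 5 of the 7 target genes of YAP and TAZ were below control, while the RNA of the coactivators was not called in the fit without a replicate term. CYR61 was 32.5-fold, ANKRD1 18.8-fold and CTGF 5.99-fold lower, AMOTL2 was 3.24-fold lower and AXL 1.76-fold lower. YAP1, WWTR1, TEAD1, AMOTL1 and LATS2 had log2 fold changes between -0.27 and 0.88, none past the threshold in the fit without a replicate term. With the replicate number as a block, YAP1 (0.84) and AMOTL1 (0.99) passed it as higher. That fit called more genes throughout, 6209 of 15572 (3120 of them higher) against 4451 without the block (2449 higher). Over all genes tested, a call here is a Benjamini-Hochberg adjusted p under 0.05 in the quasi-likelihood test of edgeR, and 5 of the 10 genes were on that list, each of them lower and 0 of them higher. Since CYR61 was chosen for its fall in this same contrast, the count is a description and nothing is read from it. AXL lost its call whenever 1 library was left out, and the other 4 kept theirs. Of all genes tested, 28.6% were called, 12.9% lower and 15.7% higher. The median log2 fold change was -0.55 over the 10 genes and 0.0064 over all genes tested.

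**Figure D1:**
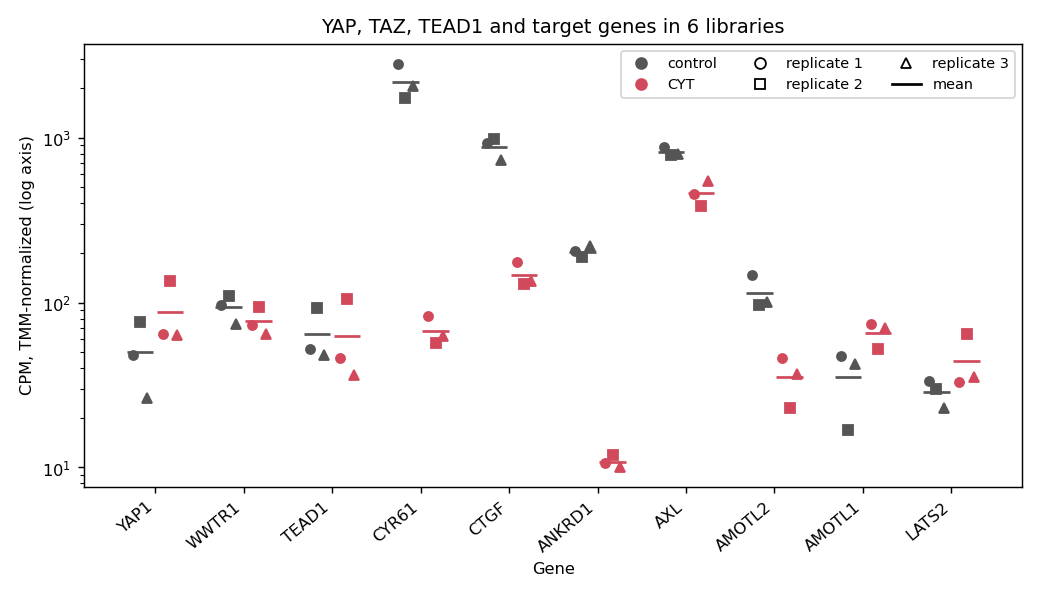
Level of each gene in the 3 control (grey) and 3 CYT (red) libraries, in TMM-normalized CPM on a log axis, with symbols for the replicate number and a line at each group mean. CYR61, CTGF, ANKRD1, AXL and AMOTL2 lie lower in every CYT library than in any control library, AMOTL1 lies higher, and the groups overlap for YAP1, WWTR1, TEAD1 and LATS2.

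In CPM, the groups did not overlap for 6 of the 10 genes, 5 with CYT below control and 1 with CYT above. Over all genes tested, 46.1% had groups that did not overlap, 22.7% with every CYT library below control and 23.4% with every CYT library above it. Within a group, values below are given in the order of replicates 1, 2 and 3. Together the 10 genes made up 0.407% to 0.488% of all counts in control libraries and 0.0998% to 0.114% in CYT libraries.

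CYR61 (ENSG00000142871, chromosome 1 of hg38 from 85580761 to 85583962, plus strand) encodes a secreted matrix protein of the CCN family that binds integrins and promotes adhesion and migration. In control cells 45187, 32576 and 28593 reads were counted for it, against 1176, 804 and 785 after CYT. On the scale of CPM these are 2802, 1734 and 2056 in control and 82.9, 57.2 and 62.4 after CYT. The lowest control library thus stood far above the highest CYT library. The mean went from 2197 ± 547 CPM (SD, n = 3) to 67.5 ± 13.6 CPM (SD, n = 3), a log2 fold change of -5.02 with a standard error (SE) of 0.35. Only 10 of the 15572 genes tested had a lower log2 fold change. The transcript took 0.183% to 0.260% of all counts in control and 0.00585% to 0.00834% in CYT libraries. No other gene of GENCODE release 29 overlaps its locus.

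The genes whose CPM pattern over the 6 libraries lay closest to that of CYR61, by the root-mean-square difference of centred log2 CPM among 11407 other genes with a mean of at least 5 CPM, were MIG7 (0.25), SLCO4A1-AS1 (0.35), ACSF3 (0.49), TAMM41 (0.53) and BRSK2 (0.53). Their log2 fold changes ran from -5.52 to -4.30, and the choice by pattern bound them to lie near that of CYR61. All were far less abundant than CYR61, the highest being MIG7 with a mean of 139 CPM in control and 3.49 CPM after CYT. SLCO4A1-AS1, ACSF3, TAMM41 and BRSK2 were near the floor after CYT, with means from 0.41 to 1.52 CPM. None of these 5 genes belongs to the pathway lists used here.

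CTGF (ENSG00000118523, chromosome 6 from 131948176 to 131951373, minus strand) encodes connective tissue growth factor, a relative of CYR61 in the CCN family with a role in matrix production. Reads counted for it numbered 15113, 18529 and 10146 in control and 2507, 1836 and 1707 after CYT. The corresponding CPM values were 937, 987 and 729 in control against 177, 131 and 136 after CYT. Every CYT library was well below every control library. The means were 884 ± 136 CPM (SD, n = 3) and 147.7 ± 25.3 CPM (SD, n = 3), and the log2 fold change was -2.58 (SE 0.29). The antisense gene AL133346.1 overlaps CTGF and had between 4 and 128 counts in a library, a small number beside the counts of CTGF.

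ANKRD1 (ENSG00000148677, chromosome 10 from 90912096 to 90921276, minus strand) encodes a nuclear and sarcomeric ankyrin repeat protein known from the stress response of muscle. Counts of 3299, 3548 and 3050 in control libraries stood against 150, 167 and 127 in CYT libraries. In CPM it was at 205, 189 and 219 in control and at 10.6, 11.9 and 10.1 after CYT. The libraries of each group lay close together, and the groups were far apart. The log2 fold change was -4.23 (SE 0.30), with 25 of all tested genes lower, and the mean CPM was 204 ± 15.2 (SD, n = 3) in control and 10.9 ± 0.928 (SD, n = 3) after CYT.

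CTGF and ANKRD1 are the targets whose proximal promoters are best known as TEAD sites, so the bases before their RefSeq starts are shown here. The letters searched were GGAATG, the core of the TEAD motif, on both strands. A promoter entry was found for 8 of the 10 genes, with 11 starts among them, in the RefSeq table of build GRCh38.p14. In the 250 bases before the start, CTGF held 3 copies, all on its own strand, and ANKRD1 held 2. Of 35116 promoters of the same length, 11.9% held at least 1 copy, 0.94% held 2 or more and 0.0826% held 3 or more. The CTGF stretch below covers chr6:131951383-131951622 on the minus strand, from 250 to 11 bases before the start, and each line for ANKRD1 gives 30 bases around a copy (chr10:90921290-90921319 and chr10:90921198-90921227, minus strand). Capitals mark the copies.
CTGF: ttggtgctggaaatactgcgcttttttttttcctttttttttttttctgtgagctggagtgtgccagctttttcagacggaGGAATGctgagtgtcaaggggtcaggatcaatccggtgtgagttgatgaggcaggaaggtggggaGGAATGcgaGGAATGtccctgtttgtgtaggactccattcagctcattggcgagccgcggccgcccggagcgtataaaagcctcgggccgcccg
ANKRD1, first copy: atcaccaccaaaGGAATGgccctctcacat
ANKRD1, second copy: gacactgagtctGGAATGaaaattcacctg

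The copies in CTGF began 169, 104 and 95 bases before the start, and those in ANKRD1 began 220 and 128 bases before it. The letters TGANTCA, a loose form of the AP-1 motif with any middle base, were searched too. They read the same on either strand and overlapped no TEAD copy in these windows. They occurred 1 time in ANKRD1, as TGATTCA, and in 0 of the other windows, against 6.57% of all promoters with at least 1 copy. The AP-1 consensus has G or C in the middle, so the letters in ANKRD1 do not match it. A copy is a match of letters and was not measured as a binding site.

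AMOTL2, AXL and YAP1 each had 1 copy of GGAATG or its complement before a listed start. They are shown as 30 bases each because AMOTL2 and AXL were called lower and YAP1 was not called lower, at chr3:134374499-134374528 (minus strand), chr19:41226531-41226560 (plus strand) and chr11:102110273-102110302 (plus strand). In AMOTL2 and AXL the copy lay before the second of a pair of listed starts and on the opposite strand, so it reads CATTCC.
AMOTL2: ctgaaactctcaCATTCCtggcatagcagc
AXL: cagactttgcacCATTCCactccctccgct
YAP1: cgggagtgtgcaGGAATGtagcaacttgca

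No copy was found in the windows of WWTR1, AMOTL1 and LATS2. Of the genes with an entry, CTGF, ANKRD1, AMOTL2 and AXL were called lower and held a copy, whereas YAP1 held a copy and was called, as higher, only with the replicate block. AMOTL2 and AXL held no copy before the first of their listed starts. CYR61 and TEAD1 had no promoter entry. The genes were chosen as known partners and targets, so nothing is read from copies and calls occurring together.

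AMOTL2 (ENSG00000114019, chromosome 3 from 134355874 to 134375479, minus strand) encodes an angiomotin-like scaffold that binds YAP and restrains it, and is itself a target gene. It had 147, 97.1 and 100.8 CPM in control libraries and 46.5, 23.0 and 36.8 CPM in CYT libraries. The CYT libraries were all below the lowest control library. Its log2 fold change was -1.70 (SE 0.35), between group means of 115 ± 27.6 CPM and 35.4 ± 11.8 CPM (SD, n = 3 each).

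AMOTL1 (ENSG00000166025, chromosome 11 from 94706431 to 94876753, plus strand), a close relative that also binds YAP, lay the other way. Control libraries had 47.4, 16.9 and 42.7 CPM and CYT libraries had 74.1, 52.0 and 70.4 CPM. The groups did not overlap, although the lowest CYT library was close to the highest control library. The log2 fold change was 0.88 (SE 0.40), which did not pass the threshold, and it was 0.53 without control replicate 2, the lowest library. With the replicate number as a block it passed as higher, at 0.99. Per kilobase, the ratio of AMOTL1 to AMOTL2, in FPKM, was 0.267 ± 0.109 in control and 1.67 ± 0.292 after CYT (SD, n = 3 each), with no overlap between the groups. The size of this ratio depends on the gene lengths behind the FPKM. With GENCODE lengths the CYT libraries had 5.58 to 7.42 FPKM for AMOTL1 and 4.13 to 7.81 FPKM for AMOTL2, ranges that overlapped.

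AXL (ENSG00000167601, chromosome 19 from 41219203 to 41261766, plus strand) encodes a receptor tyrosine kinase linked to invasion and drug resistance. In control it had 14182, 14679 and 11030 counts, or 879, 782 and 793 CPM. In CYT libraries it had 6458, 5446 and 6910 counts, or 455, 388 and 549 CPM. All CYT libraries were lower, and the difference was the smallest of the 5 called genes. The log2 fold change was -0.82 (SE 0.27), and 21.7% of all genes tested had a lower one. AXL was called in 4 of the 14 alternative fits and in 0 of the 6 that left out a library, where the log2 fold change ran from -0.93 to -0.71. It also lost its call with RLE or upper-quartile normalization, without a filter and above a mean of 5 CPM.

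LATS2 (ENSG00000150457, chromosome 13 from 20973032 to 21061547, minus strand) encodes a kinase that phosphorylates YAP and TAZ, and it is a target gene in a negative feedback. It had 33.7, 29.8 and 23.0 CPM in control libraries and 32.8, 64.6 and 35.2 CPM in CYT libraries. The groups overlapped, and CYT replicate 2 was the only library clearly above the others. The log2 fold change was 0.62 (SE 0.35) and 0.23 without CYT replicate 2, not past the threshold in either fit.

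YAP1 (ENSG00000137693, chromosome 11 from 102110461 to 102233423, plus strand) had 48.2, 76.5 and 26.2 CPM in control libraries. It had 64.6, 136 and 63.7 CPM in CYT libraries. The highest control library lay between the CYT libraries. The log2 fold change was 0.81 (SE 0.45), not past the threshold, and it was 0.34 without CYT replicate 2, 0.47 without control replicate 3 and 1.23 without control replicate 2. With the replicate block it was 0.84 and passed the threshold as higher.

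WWTR1 (ENSG00000018408, chromosome 3 from 149517235 to 149736714, minus strand) had 97.3, 109 and 74.3 CPM in control libraries, compared with 72.7, 94.5 and 65.0 CPM in CYT libraries. The ranges overlapped widely. Its log2 fold change of -0.27 (SE 0.30) did not pass the threshold, nor did that with the replicate block (-0.27). On omitting 1 library the log2 fold change ran from -0.45 without CYT replicate 2 to -0.15 without CYT replicate 3. The antisense gene WWTR1-AS1, which overlaps WWTR1, had 3, 4 and 5 counts in control and 43, 34 and 105 counts in CYT libraries. The use of strand in counting is not given in the sources used here, so reads of WWTR1 and WWTR1-AS1 cannot be told apart where they overlap. WWTR1 had 818 to 2052 counts. In CYT replicate 3 the highest count of WWTR1-AS1, 105, stood beside the lowest of WWTR1, 818. The part of these reads in the value of WWTR1 was not tested.

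TEAD1 (ENSG00000187079, chromosome 11 from 12674591 to 12944483, plus strand), which carries YAP and TAZ to DNA, had 52.1, 93.3 and 48.5 CPM in control libraries and 46.2, 105.8 and 36.2 CPM in CYT libraries. Replicate 2 was the highest library of each group. The log2 fold change was -0.043 (SE 0.45), and its sign depended on the fit, with 0.10 under upper-quartile normalization, -0.66 without CYT replicate 2 and 0.29 without control replicate 2.

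**Figure D2:**
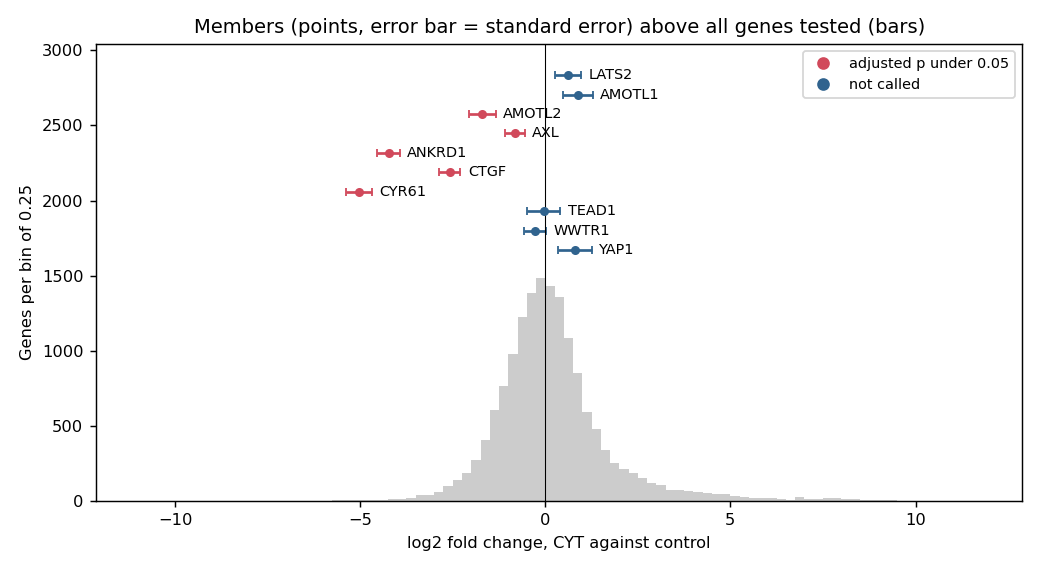
Log2 fold change of CYT against control for the 10 genes (points, with the standard error as the bar) above the distribution over all 15572 genes tested (grey bars, genes per bin); the height of a point carries no value. CYR61 at -5.02 and ANKRD1 at -4.23 lie in the lower tail, while YAP1, WWTR1, TEAD1, AMOTL1 and LATS2 lie within the body of the distribution.

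YAP1, WWTR1 and TEAD1 varied alike with the replicate number. In each of them replicate 2 was the highest library of both groups, a pattern seen in 27.7% of all genes tested. On the log2 scale, YAP1 was 1.10 higher in control replicate 2 than in the mean of control replicates 1 and 3, and 1.08 higher in CYT replicate 2 than in the mean of CYT replicates 1 and 3. For TEAD1 these differences were 0.89 and 1.37, and for WWTR1 they were 0.36 and 0.46. CYR61, AMOTL1, AMOTL2 and AXL went the other way, with replicate 2 as the lowest library in both groups, as in 27.4% of all genes. The pattern was noticed in these values, and was not tested.

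Gene length moved with the replicate number too. With the tested genes in 4 equal classes of length, as count and FPKM imply it, the longest class held 3893 genes, in which the median of that replicate 2 difference was 0.030 in control and 0.23 in CYT libraries, and in the shortest class it was -0.091 and -0.21. WWTR1, TEAD1, AMOTL1 and AMOTL2 were in the longest class, YAP1 in the next, LATS2 and AXL in the one after, and CYR61, CTGF and ANKRD1 in the shortest. AMOTL1 and AMOTL2 did not follow the median of their class, with replicate 2 differences of -1.41 and -0.47 in AMOTL1 and of -0.32 and -0.84 in AMOTL2, in control and CYT libraries respectively. The median log2 fold change of CYT against control was 0.29 in the shortest class, where 8.89% of genes were called lower, so CYR61, CTGF and ANKRD1 lay on the other side of 0 from the median of their class. The part of length in these results was not tested.

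Levels were compared between genes per length, as FPKM, which divides the count by the length of the gene model and the library size. In control cells CYR61 was the highest of the 10 at 759 ± 141 FPKM (SD, n = 3), followed by CTGF at 376 ± 68.6, AXL at 114 ± 3.04 and ANKRD1 at 102 ± 6.92, and none of these 4 overlapped its neighbour in the order. CYR61 ranked 64 and CTGF 114 among the tested genes by mean control FPKM. Far below came AMOTL2 at 7.72 ± 1.39 and WWTR1 at 7.24 ± 1.64, which overlapped each other. LATS2 at 4.85 ± 0.845, YAP1 at 4.82 ± 2.66 and TEAD1 at 4.58 ± 2.05 overlapped as well, and AMOTL1 was lowest at 2.07 ± 0.872.

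After CYT the order changed. AXL at 65.3 ± 6.91 FPKM (SD, n = 3) and CTGF at 63.5 ± 11.2 led and overlapped each other, and CYR61 came next at 23.9 ± 4.77. ANKRD1, at 5.54 ± 0.853 FPKM, overlapped its neighbours WWTR1 at 6.11 ± 1.63 and TEAD1 at 4.56 ± 3.02. YAP1 was at 8.61 ± 4.62, LATS2 at 7.69 ± 3.59, AMOTL1 at 3.90 ± 0.550 and AMOTL2 at 2.42 ± 0.753. From YAP1 down to AMOTL1 each gene overlapped the next. LATS2, whose groups overlapped in CPM, had every CYT library above control in FPKM, by a narrow margin of 5.61 over 5.36.

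The length behind the FPKM equalled the exonic length in GENCODE release 29 for CTGF (2339 bp) and ANKRD1 (1979 bp), but it was longer for the other genes, for example 14622 bp against 5984 bp in AMOTL2. With the GENCODE lengths, the order in control kept the same genes in the first 6 places, and below them YAP1 (8.03 FPKM) and TEAD1 (6.33 FPKM) moved above LATS2 (5.11 FPKM). After CYT the GENCODE lengths put ANKRD1 (5.54 FPKM) last, just below AMOTL2 (5.90 FPKM), with ranges that overlapped. They also parted AXL from CTGF, with 80.9 FPKM in the lowest CYT library for AXL and 76.0 FPKM in the highest for CTGF. The comparison of a gene with itself across libraries is not touched by this.

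The ratio of YAP1 to WWTR1, per length, was 0.608, 0.859 and 0.433 in control libraries and from 1.09 to 1.76 in CYT libraries, so that every CYT library lay above every control library although neither gene was called on its own in the fit without a replicate term. With the replicate block YAP1 was called higher. The ratio of CYR61 to CTGF was 2.46, 1.45 and 2.32 in control and 0.386, 0.361 and 0.379 in CYT libraries. This ratio varied little among CYT libraries, and in all of them CTGF exceeded CYR61, whereas CYR61 exceeded CTGF in all control libraries.

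**Figure D3:**
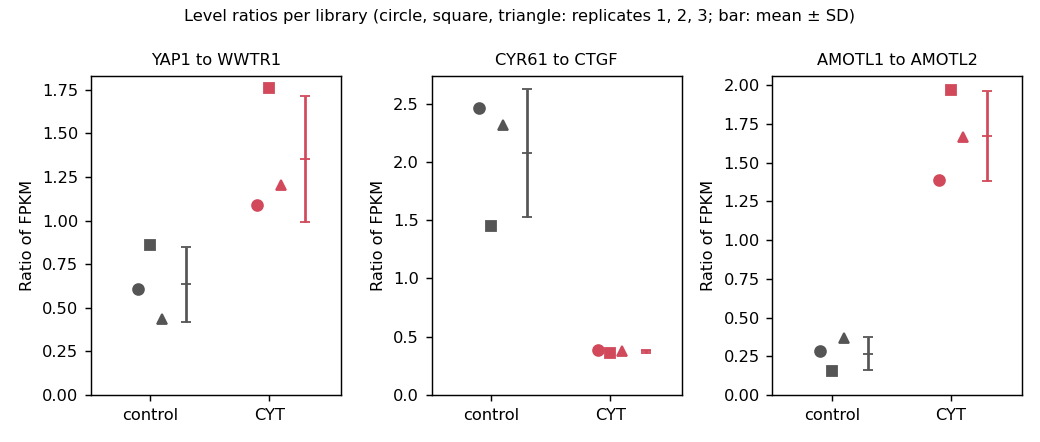
Ratio of FPKM within each library for YAP1 to WWTR1, CYR61 to CTGF and AMOTL1 to AMOTL2, with the mean and SD of 3 libraries beside the points. The FPKM are those of the authors, and the size of a ratio depends on the gene lengths behind them. The control and CYT libraries do not overlap in any of the 3 ratios, and the CYT mean is 1.35 for YAP1 to WWTR1, 0.375 for CYR61 to CTGF and 1.67 for AMOTL1 to AMOTL2.

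The rest of the pathway is described from lists of genes that are not among the 10. Of 24 genes for Hippo kinases, their cofactors and membrane scaffolds, all were tested. In this list 1 was called lower and 0 higher, beside 12.9% lower and 15.7% higher over all genes tested. The median log2 fold change of the list was -0.12. This median moved to -0.51 without CYT replicate 2 and was above 0 without control replicate 2 (0.10), CYT replicate 1 (0.071) or CYT replicate 3 (0.10) and with upper-quartile normalization (0.024). WWC1, which encodes the scaffold KIBRA, had 31.4, 21.5 and 19.5 CPM in control libraries and 8.75, 7.05 and 8.50 CPM in CYT libraries. It fell by 1.57 on the log2 scale (SE 0.33, edgeR adjusted p = 0.0070). WWC1 was called in all 14 alternative fits.

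The core kinases were not called. STK3 and STK4, the kinases that activate LATS1 and LATS2, had log2 fold changes of -0.55 and 0.63 with adjusted p-values of 0.361 and 0.374 from edgeR, and LATS1 had -0.24 (edgeR adjusted p = 0.724). Without CYT replicate 2 the log2 fold change was -1.12 for STK3, -0.033 for STK4 and -0.81 for LATS1, of which STK3 alone was called. MOB1A, the LATS cofactor and most abundant gene of this list, had a log2 fold change of 0.59 (edgeR adjusted p = 0.293), and of 0.13 without CYT replicate 2. With the replicate block, 4 genes of the list were called, WWC1 and STRN4 lower and TAOK2 and FAT4 higher. Over all genes tested the block called 6209, against 4451 without it. Without CYT replicate 2, 5 were called, STK3, WWC1, TAOK3 and STRN3 lower and TAOK2 higher.

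Of 7 genes for the other TEAD factors and the VGLL cofactors that also bind TEAD, 5 were tested. Of these, 2 were called higher and 0 lower, beside 15.7% and 12.9% of all genes tested, although the median log2 fold change was -0.21. The sign of this median was not stable, with 0.53 without a filter, where VGLL2 was tested too, 0.0013 without control replicate 1 and 0.082 without CYT replicate 2. TEAD3 had 51.2, 27.6 and 39.1 CPM in control libraries and 112, 64.2 and 130 CPM in CYT libraries, with no overlap. It rose by a log2 fold change of 1.38 (SE 0.37, edgeR adjusted p = 0.0213). VGLL3 rose by 2.31 on the log2 scale (SE 0.72, edgeR adjusted p = 0.0391), from 3 to 16 counts in control to 12 to 58 counts in CYT libraries, ranges that overlapped. Its log2 fold change was 1.62 without CYT replicate 2 and 3.10 without control replicate 2.

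Neither call was firm. TEAD3 lost its call without control replicate 2, control replicate 3, CYT replicate 1 or CYT replicate 3, with an edgeR adjusted p of up to 0.0831. VGLL3 lost its call without control replicate 1, control replicate 3, CYT replicate 2 or CYT replicate 3, with an edgeR adjusted p of up to 0.136, and with limma on FPKM. TEAD2, not called at -0.92 (edgeR adjusted p = 0.0950), was called lower with the replicate block (edgeR adjusted p = 0.0149). TEAD4 and VGLL4 had log2 fold changes of -0.21 and -0.22 (0.082 and -0.27 without CYT replicate 2) and were not called, while VGLL1 and VGLL2 were below the filter, with 4 counts or fewer in each library.

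A further 16 genes are in wide use as YAP and TAZ targets, and all of them were tested. Of these, 3 were called higher and 3 lower, beside 15.7% and 12.9% of all genes tested. The median log2 fold change was -0.28, and it was -0.55 without CYT replicate 2, -0.44 without control replicate 3 and -0.021 above a mean of 5 CPM. GADD45B, a stress-induced gene, had 39.1, 34.9 and 39.8 CPM in control libraries and 180.2, 153 and 206 CPM in CYT libraries. It rose by 2.24 on the log2 scale (SE 0.29, edgeR adjusted p = 0.0010). CCDC80, which encodes a secreted matrix protein, rose by 1.96 (SE 0.41, edgeR adjusted p = 0.0074), from 8.04 to 11.7 CPM in control to 26.0 to 62.8 CPM in CYT libraries, and by 1.42 without CYT replicate 2. Both were called in all 14 alternative fits.

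ARHGEF17 rose by 1.25 (SE 0.39, edgeR adjusted p = 0.0377), with ranges of 43.7 to 66.6 CPM in control and 64.7 to 158 CPM after CYT that overlapped. FOXF2, a forkhead transcription factor, fell by 1.22 (SE 0.33, edgeR adjusted p = 0.0213), from 13.5 to 20.1 CPM to 6.26 to 8.11 CPM. DOCK5, an exchange factor for Rac, fell by 1.04 (SE 0.30, edgeR adjusted p = 0.0301), and ASAP1, an ARF GTPase-activating protein, fell by 0.93 (SE 0.31, edgeR adjusted p = 0.0471). These 4 calls depended on the fit. ASAP1 was called in 3 of the 14 alternative fits, DOCK5 in 6, ARHGEF17 in 9 and FOXF2 in 12. ASAP1 lost its call with RLE or upper-quartile normalization, without a filter, above a mean of 5 CPM and with limma at both pseudocounts, and DOCK5 with upper-quartile normalization, above a mean of 5 CPM and with limma at a pseudocount of 0.1. Leaving out control replicate 3 or CYT replicate 3 ended the calls of FOXF2, DOCK5, ASAP1 and ARHGEF17, and leaving out control replicate 1, control replicate 2 or CYT replicate 1 ended those of DOCK5, ASAP1 and ARHGEF17. NT5E, the most abundant gene of the list and the ecto-nucleotidase CD73, had 407 to 571 CPM in control and 297 to 731 CPM after CYT (log2 fold change -0.099, edgeR adjusted p = 0.869), and its log2 fold change was -0.62 without CYT replicate 2.

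Of 11 relatives and partners of the 10 genes, 6 were tested. By edgeR 0 of these were called, beside 28.6% of all genes tested, and 0 had an unadjusted p under 0.05. Their median log2 fold change was 0.37, but 0.054 without CYT replicate 2, 0.063 without CYT replicate 1 and 0.12 with the replicate block. By DESeq2, 0 were called as well, and without CYT replicate 2 TYRO3 was called higher in edgeR (log2 fold change 0.87, adjusted p = 0.0207). NOV, the CCN family member that passed the filter, had a log2 fold change of 0.19 (edgeR adjusted p = 0.698, and -0.093 without CYT replicate 2), and WISP1, WISP2 and WISP3 were below the filter with at most 16 counts in a library. GAS6, the ligand of AXL, had 68.1 to 86.2 CPM in control and 36.3 to 100.1 CPM after CYT (log2 fold change -0.24, edgeR adjusted p = 0.674), with 0.049 without CYT replicate 2. TYRO3 and MERTK, the receptors related to AXL, had log2 fold changes of 0.58 and -0.58 and were not called. AMOT, the founding angiomotin, had from 3 to 14 counts in a library and was below the filter.

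**Figure D4:**
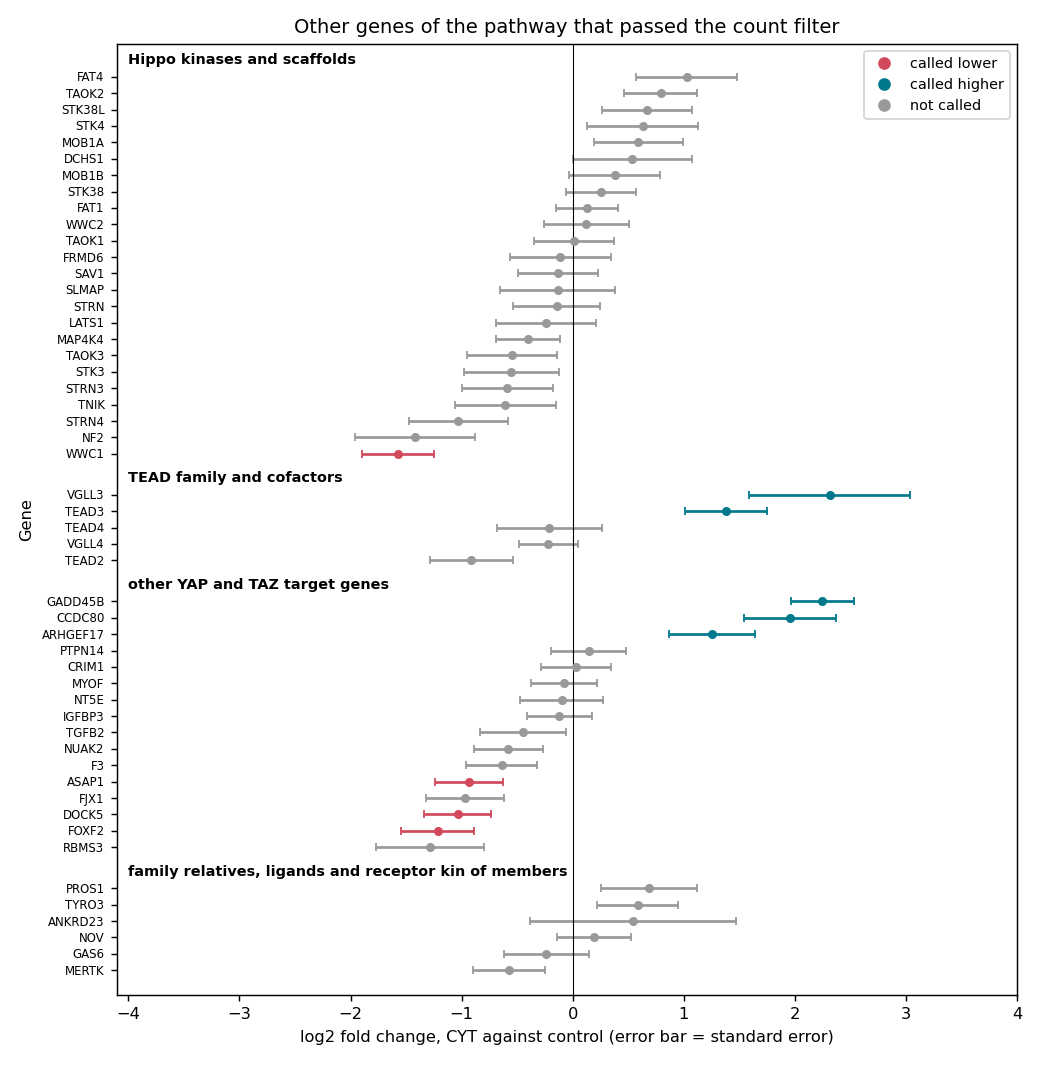
Log2 fold change of CYT against control, with the standard error as the bar, for every tested gene of the 4 pathway lists, coloured by the call of edgeR's quasi-likelihood test. WWC1, ASAP1, DOCK5 and FOXF2 were called lower, TEAD3, VGLL3, GADD45B, CCDC80 and ARHGEF17 higher, and no gene of the lists was as low as CYR61, ANKRD1 or CTGF.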

How the data were processed

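RNA of 6 libraries was extracted with RNeasy kits, mRNA was separated, and sequencing was on an Illumina NovaSeq platform. The authors removed low-quality, adapter and rRNA sequences, aligned the clean reads with Hisat2 and deposited raw counts per gene. They also deposited FPKM values, made with Stringtie per their methods. The genome build hg38 and FastQC 0.12.1 are named in the submitters' processing notes. The counting program, its annotation and its use of strand are not given in the sources used here.

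Counts were tested with edgeR 4.0.16 in R 4.3.3 (filterByExpr with a minimum count of 10, TMM, quasi-likelihood test of CYT against control, no replicate term), with Benjamini-Hochberg adjustment over 15572 genes and a threshold of 0.05 for a call. A standard error is the absolute log2 fold change over the root of F. The centred log2 CPM used a prior count of 2. The 10 genes and the pathway lists were chosen with earlier results of these data known. Named are the 10 genes, in each list the called genes (at most 6) and the most abundant uncalled gene, and the 5 genes closest to CYR61 in pattern. Other genes of the lists were named after their values were seen. Alternatives were RLE and upper-quartile normalization, DESeq2 1.42.0, testing without a filter or above a mean of 5 CPM, limma 3.58.1 on log2 FPKM (pseudocounts 1 and 0.1), a replicate block and leaving out each library. GENCODE lengths were added after the data were seen. The scripts were tested on simulated counts. Replicate pairs differed by far more than sampling noise (chi-square per gene of 24.8 or more), so none looked like 1 library deposited again. This does not show that they were separate cultures.

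Deviations from the group mean correlated between the libraries numbered 1 (r = 0.188), those numbered 2 (0.458) and those numbered 3 (0.124). Each r exceeded 0.1, but control 1 with CYT 3 (0.303) and control 3 with CYT 1 (0.201) correlated more. Only the libraries numbered 2 correlated most with each other. The labels' numbers and this check alone do not establish pairing. The main fit has no replicate term, and the replicate block is given as an alternative.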

Additional observations from a re-analysis of the deposited data

How the results depend on the processing

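CYR61, CTGF, ANKRD1 and AMOTL2 were called lower in all 14 alternative fits, with log2 fold changes from -5.20 to -4.83, from -2.74 to -2.43, from -4.31 to -3.99 and from -1.95 to -1.36. All of these fits drew on the libraries in which CYR61 was seen to fall, so this is a description and no independent support. The number of the 10 genes called, 5, was 4 whichever of the 6 libraries was omitted and with RLE or upper-quartile normalization, without a filter and above a mean of 5 CPM, where AXL was lost, and 7 with the replicate block, where YAP1 and AMOTL1 were called higher. Upper-quartile normalization shifted the median of all genes from 0.0064 to 0.16, and testing 32060 genes without a filter to 0.41. Of all genes tested, 4451 were called, and 6209 with the replicate block, 3120 of them higher and 3089 lower. The count was 2859 above a mean of 5 CPM (11420 genes tested), and between 2891 (without control replicate 3) and 5752 (without CYT replicate 2) on omitting 1 library. For the Hippo kinases and scaffolds the count of 1 was 2 with DESeq2 and 2 without a filter (NF2 lower in both), 4 under the replicate block and between 1 and 5 on omitting 1 library. For the TEAD factors and cofactors the count of 2 was 1 above a mean of 5 CPM, where VGLL3 was not tested, 1 with limma at either pseudocount, and 0 or 1 on omitting 1 library (0 without control replicate 3 or CYT replicate 3). For the other targets the count of 6 ran from 2 to 7, and for the relatives the count of 0 ran from 0 to 1 (TYRO3 without CYT replicate 2), again on omitting 1 library. The uncalled NT5E changed sign with upper-quartile normalization (0.050) and above a mean of 5 CPM (0.0016), and ran from -0.62 to 0.13 on omitting 1 library, and GAS6 ran from -0.65 to 0.049. Except where a reason is given, the cause was not tested. The replicate block also called FJX1, RBMS3 and TEAD2 lower, and beside these and the genes named with it above and in the Hippo list it changed no call among the 10 genes and the 4 lists. VGLL2, AMOT, ANKRD2, WISP1, WISP2 and WISP3 were tested only without a filter, where 0 of them were called, and VGLL1 had 0 counts in every library.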
